A study of Homo sapiens with 44 samples.

Results

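RMRP, RPPH1, MALAT1, NEAT1 and TERC are noncoding RNAs counted by gene symbol, and they were 5 of the 23367 gene rows of the deposited count table. The rows were chosen by name, and all 5 passed the filter on low counts, which left 14534 genes. The cells were IMR5/75, a human neuroblastoma line that carries a tetracycline-inducible short hairpin RNA against MYCN, the oncogenic transcription factor of this tumour. Tet plus cultures were treated with tetracycline, and Tet minus cultures carried the same construct without it. An 18 h thymidine block arrested both arms at the entry into S phase before washout, so every group shared the hairpin construct and the thymidine block. Total RNA depleted of ribosomal RNA was sequenced at 0, 3, 6, 8, 10, 12, 14, 16, 18, 20 and 22 h after washout, with 2 biological replicates per arm and time (44 libraries). All libraries came from 1 line, and fewer cells and less RNA per cell cannot be told apart in such bulk samples.

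The gene counts ran between 10906524 and 25313546 per library. The labels place the libraries of 0 to 6 h, 8 to 12 h and 14 to 22 h in 3 lane sets, each of which holds both arms up to 14 h, with 1 lane for each replicate number. The 8 Tet plus libraries of 16 to 22 h are titled in another form than the rest. Their lane numbers are those of the 0 to 6 h libraries and not those of Tet minus at the same times. The labels state no run. Some of the 8 titles repeat both the barcode letters and the lane number of a 0 to 6 h library. These 8 libraries are treated as another run. Arm and run therefore cannot be told apart there. In those 8 libraries the ERCC spike-in RNAs took 0.0543 to 0.376% of all counts, against 1.13 to 3.43% in Tet minus libraries of the same times. The share of small nucleolar and Cajal body RNA rows among gene counts was 0.935 to 2.41% in those 8 libraries, against 0.289 to 0.713% in Tet minus. MYCN was lower in Tet plus in all 14 same-numbered pairs at 0 to 14 h, by a fitted log2 difference of -0.27 (SE 0.0460, edgeR's quasi-likelihood test, adjusted p = 2.7e-05). Of the noradrenergic neuroblastoma markers 6 of 7 passed the filter, and TH, which had 0 to 4 counts per library, did not. At 0 to 14 h 3 of these 6 were higher in Tet plus, HAND2 (0.28), ISL1 (0.32) and DBH (1.19), and 0 were lower, against 20.1% of all genes higher. The list summed to 705 to 1266 CPM in Tet plus libraries of those times, against 501 to 1012 CPM in Tet minus libraries, and its part in the results was not tested. Leukocyte markers summed to 2.02 to 4.68 CPM over all libraries, and CD3E was at 0 in every library. Of 5 tested fibroblast and mesenchymal markers, COL1A1 was higher in Tet plus at 0 to 14 h, and over those times the list summed to 128 to 405 CPM in Tet plus libraries, against 128 to 372 CPM in Tet minus libraries; its part in the results was not tested.

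RMRP is the RNA of RNase MRP, a nucleolar ribonucleoprotein that cuts the precursor of ribosomal RNA. RPPH1 is the RNA of the related RNase P, which removes the leader of precursor tRNAs, and both enzymes share most of their protein subunits. RNA polymerase III makes both RNAs from promoters that lie outside the transcribed sequence. TERC is the template RNA of telomerase and belongs to the H/ACA class. MALAT1 is a long RNA of nuclear speckles, where splicing factors gather, and NEAT1 is the scaffold of paraspeckles. MALAT1 and NEAT1 are neighbours in the genome, and RNase P cuts their primary transcripts in front of a tRNA-like RNA, which frees the ends of the long RNAs.

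The sequences of the short RNAs are shown because RMRP and RPPH1 had among the highest counts of the gene rows in these libraries. They are read from the GENCODE release 29 transcripts on GRCh38 and written 5′ to 3′ as DNA, while the counts were made on hg19. RMRP lies at chr9:35657751-35658018 on the minus strand and is 268 bases long. RPPH1 lies at chr14:20343075-20343407 on the minus strand and is 333 bases long, of which the first 300 are printed. Capitals mark the longest exact run that the 2 RNAs share, 9 bases that start at position 243 of RMRP and position 146 of RPPH1.
RMRP: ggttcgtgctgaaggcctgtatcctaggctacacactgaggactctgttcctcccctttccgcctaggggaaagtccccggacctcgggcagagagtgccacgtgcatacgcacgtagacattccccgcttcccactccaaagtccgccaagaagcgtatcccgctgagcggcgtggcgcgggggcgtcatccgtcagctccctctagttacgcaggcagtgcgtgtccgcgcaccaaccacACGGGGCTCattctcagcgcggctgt
RPPH1: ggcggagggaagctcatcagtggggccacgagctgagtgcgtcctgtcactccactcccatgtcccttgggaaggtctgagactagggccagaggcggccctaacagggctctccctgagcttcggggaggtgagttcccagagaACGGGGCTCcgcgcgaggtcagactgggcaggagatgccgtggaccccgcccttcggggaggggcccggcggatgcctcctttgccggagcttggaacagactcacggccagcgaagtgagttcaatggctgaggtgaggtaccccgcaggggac

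The 6-letter motif CACGTG, the E-box core that MYC family proteins are known to bind, reads the same on both strands. It occurs 1 time in RMRP, at position 100, and 0 times in RPPH1 and TERC. Of the 195239 GENCODE transcripts at least as long as RMRP, 4.18% hold it in their first 268 bases. The match is a description of letters in the transcribed region and does not show binding.

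TERC lies at chr3:169764520-169765060 on the minus strand and is 541 bases long, and its first 100 bases are shown for the telomere template. Capitals mark the longest run, of 11 bases at positions 46 to 56, that is complementary to the telomere repeat.
TERC: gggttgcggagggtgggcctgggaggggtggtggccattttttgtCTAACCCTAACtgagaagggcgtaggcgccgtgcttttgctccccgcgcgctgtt

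The tRNA-like RNAs next to MALAT1 and NEAT1 are shown because they are the cutting sites that link both long RNAs to RNase P. GENCODE lists them under the Rfam family of mascRNA and menRNA, at chr11:65506117-65506173 and chr11:65445541-65445598 on the plus strand. The first starts at position 8356 of the 8708-base MALAT1 transcript, and the second follows directly on the end of the 22743-base NEAT1 isoform. Capitals mark exact runs of at least 7 bases that the tRNA-like RNAs share, and 67.21% of their 61 aligned positions are identical.
mascRNA: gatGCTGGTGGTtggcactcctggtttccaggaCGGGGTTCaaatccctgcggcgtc
menRNA: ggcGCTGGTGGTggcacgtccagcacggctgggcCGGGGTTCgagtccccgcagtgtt

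Together the 5 RNAs held 1.93 to 3.09% of the gene counts in Tet plus libraries at 0 to 14 h, against 1.93 to 2.66% in Tet minus libraries. Over the 36 libraries outside the other run, RMRP alone held 0.740 to 1.5% and ranked 1 to 5 among the genes with a row in the count table. RN7SK, RN7SL1, RN7SL2, RNY1 and RNY3 have no row there and so no rank. RPPH1 held 0.538 to 1.37% and ranked 2 to 6, and MALAT1 held 0.103 to 0.904% and ranked 3 to 91. NEAT1 held 0.00548 to 0.0669% and TERC 0.00895 to 0.0157%. The half-widths of the exact (Clopper-Pearson) 95% intervals, which cover counting error only, were at most 0.713% of the value for RMRP and RPPH1 and at most 5.49% of it for NEAT1 and TERC. Counting error was therefore small beside the spread between replicates given below.

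Per kilobase of transcript the levels lay wider apart, and TERC stood above NEAT1, the reverse of their median CPM (122 for TERC, 198 for NEAT1). The median level over the same 36 libraries was 40435 CPM per kilobase for RMRP and 26484 for RPPH1. It was 297 for MALAT1 and 226 for TERC, whose ranges overlapped. NEAT1 had a median of 8.69 CPM per kilobase when divided by its long isoform and 57.5 when divided by its short isoform of 3441 bases, and the table does not separate the isoforms. CPM here and below are scaled with TMM factors. Outside this paragraph, shares, ranks and count ratios of different RNAs are not corrected for length.

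Averaged over 0 to 14 h, none of the 5 RNAs differed between the arms at an adjusted p of 0.05 by edgeR's quasi-likelihood test, while 41.4% of the 14534 genes did; with the replicate number as a block 1 of the 5, MALAT1, did (0.38, adjusted p = 0.0493). At an unadjusted threshold of 0.05 edgeR's test would call 1 of the 5, MALAT1 (0.0476), and DESeq2 with adjustment called 0. The 41.4% belongs to edgeR's test without the block. No share of all genes is given for the block, the unadjusted threshold or DESeq2, so those counts stand without a background. RMRP and RPPH1 had log2 differences of -0.14 (SE 0.0943, 95% interval -0.34 to 0.051, adjusted p = 0.235) and -0.18 (SE 0.125, interval -0.44 to 0.074, adjusted p = 0.255). MALAT1 had a log2 difference of 0.37 (SE 0.177, interval 0.0042 to 0.73, adjusted p = 0.0994) and NEAT1 of 0.34 (SE 0.254, interval -0.18 to 0.86, adjusted p = 0.299). TERC was the nearest to 0, at -0.038 (SE 0.0830, interval -0.21 to 0.13, adjusted p = 0.749). The intervals are wide for the long RNAs, and those of RMRP and RPPH1 reach past the MYCN difference of -0.27, whereas that of TERC does not. These intervals and adjusted p-values come from a fit that did not use the pairing of same-numbered libraries.

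**Figure D1:**
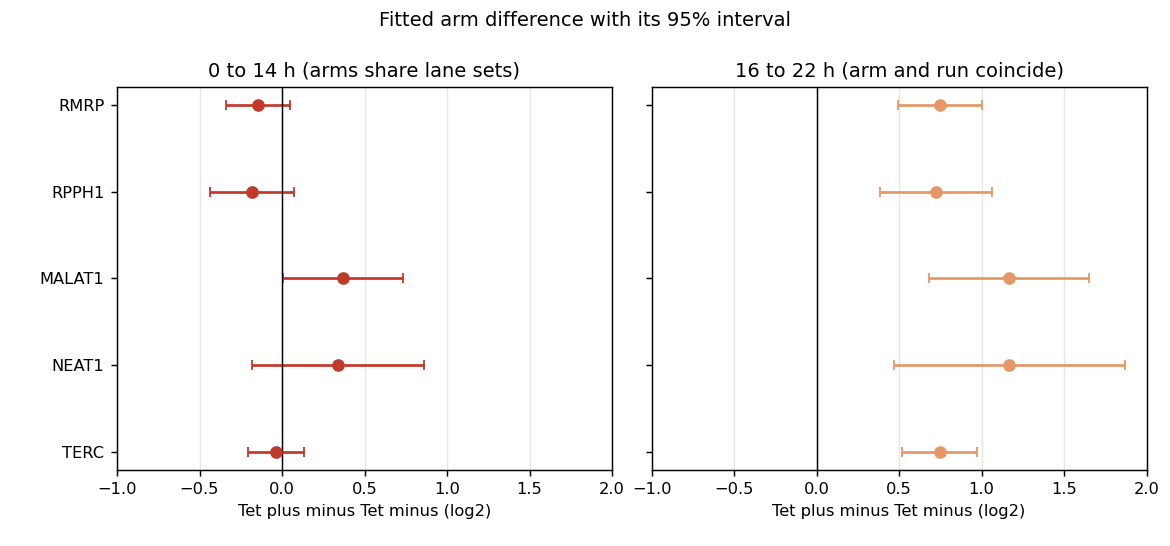
Fitted log2 difference between the arms (x axis, Tet plus minus Tet minus) for each RNA, with points for the estimate and bars for its 95% interval; the left panel averages 0 to 14 h and the right panel 16 to 22 h. On the left only the MALAT1 interval lies above 0, from 0.0042 to 0.73, and its adjusted p was 0.0994; on the right all 5 lie above 0, where arm and run coincide.

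RMRP showed how far replicates could differ. At 0, 3 and 6 h RMRP had 10615 and 8609, 10149.7 and 11699.9, and 7177 and 6732 CPM in Tet plus libraries, against 9512 and 10941, 10607 and 10945, and 8194 and 12473 CPM in Tet minus libraries. At 8, 10 and 12 h RMRP had 7551 and 14650.4, 10685 and 11965, and 9654 and 10625 CPM in Tet plus libraries, against 7873 and 13346, 11458 and 12343, and 12265 and 12027 CPM in Tet minus libraries. At 14 h RMRP had 10048 and 10572 CPM in Tet plus libraries, against 11963 and 10036 CPM in Tet minus libraries. The groups overlapped at 5 of 7 times, and Tet plus lay below Tet minus at 6 and 12 h. With 2 libraries against 2, groups can lie apart without an arm difference, and the share of all genes that did so was not computed. Counts of overlap here and below are therefore descriptions. Of all genes 1.57, 2.72, 7.09, 3.43, 3.4, 4.19 and 5.37% were called at the 7 times in order, and RMRP at none. At 8 h replicate 2 had 1.94 times the level of replicate 1 in Tet plus and 1.70 times in Tet minus. RMRP was lower in Tet plus in 10 of 14 same-numbered pairs. Without replicate 2 of Tet plus at 8 h its difference was -0.22 with an adjusted p of 0.0447, the only one of 28 left-out libraries to bring it past the threshold, and the adjusted p ranged between 0.0447 and 0.546 over them.

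RPPH1 moved with RMRP. At 0, 3 and 6 h RPPH1 had 8362 and 8846, 7966 and 10798, and 6128 and 5802 CPM in Tet plus libraries, against 8027 and 11877, 7968 and 10410.2, and 6986 and 11264 CPM in Tet minus libraries. At 8, 10 and 12 h RPPH1 had 5831 and 13376, 7662 and 10704, and 7015 and 8289.9 CPM in Tet plus libraries, against 6476 and 11892, 8336 and 10751, and 8292 and 10417 CPM in Tet minus libraries. At 14 h RPPH1 had 7127 and 8792 CPM in Tet plus libraries, against 9501 and 8773 CPM in Tet minus libraries. Tet plus again lay below Tet minus at 6 and 12 h and overlapped it at the other 5 times, with 10 of 14 pairs lower. The widest replicate gap was also at 8 h, 2.29-fold in Tet plus and 1.84-fold in Tet minus. The count ratio of RMRP to RPPH1 was 0.973 to 1.41 with a median of 1.24 in Tet plus libraries at 0 to 14 h, against 0.921 to 1.48 with a median of 1.16 in Tet minus libraries. The arms differed in the mean log2 ratio by 0.039 (0.28 in Tet plus, 0.24 in Tet minus; exact permutation test within times, two-sided, p = 0.498, adjusted over 5 such measures 0.623, n = 14 each; within same-numbered pairs 0.0917, adjusted 0.153).

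MALAT1 had the widest range of the abundant RNAs. At 0, 3 and 6 h MALAT1 had 1849 and 5547, 3396 and 2246, and 4378 and 8225 CPM in Tet plus libraries, against 2554 and 3187, 2816 and 2934, and 3955 and 1524 CPM in Tet minus libraries. At 8, 10 and 12 h MALAT1 had 4225 and 1881, 2793 and 1827, and 3085 and 3706 CPM in Tet plus libraries, against 4195 and 1796, 2870.4 and 3012, and 2007 and 2200.0 CPM in Tet minus libraries. At 14 h MALAT1 had 2737 and 2831 CPM in Tet plus libraries, against 1589 and 1915 CPM in Tet minus libraries. Tet plus lay above Tet minus at 6, 12 and 14 h, below it at 10 h, and the arms overlapped at 0, 3 and 8 h. MALAT1 was higher in Tet plus in 10 of 14 same-numbered pairs, and its largest difference was at 6 h, 1.20 on the log2 scale (SE 0.475, adjusted p = 0.128). That value rests on replicate 2, where Tet plus had 8225 CPM and Tet minus 1524 CPM, and it was 0.66 without the first of these libraries and 0.67 without the second. Without replicate 1 of Tet minus it was 2.05 (adjusted p = 0.0569), and without replicate 1 of Tet plus 1.59. The arm difference was 0.51 (SE 0.271) within the lane set of 0 to 6 h, 0.12 (SE 0.270) within that of 8 to 12 h and 0.67 (SE 0.471) at 14 h. None of these passed, with adjusted p-values of 0.200, 0.802 and 0.484, where 18.8, 21.3 and 5.37% of all genes were called.

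With the replicate number as a block, MALAT1 passed at 0 to 14 h with a log2 difference of 0.38 and an adjusted p of 0.0493, and at 6 h with 1.28 and 0.0399. The shares of all genes called with the block in these comparisons are not given. Over the 7 alternatives that kept all libraries of the comparison the adjusted p at 0 to 14 h ranged between 0.0493 and 1.00, the highest with ERCC scaling. Leaving out 1 library brought it past the threshold in 4 of 28 cases: replicate 1 of Tet plus at 0 h (0.45), replicate 2 of Tet plus at 8 h (0.44), replicate 1 of Tet minus at 6 h (0.49) and replicate 1 of Tet minus at 8 h (0.47). Without replicate 2 of Tet plus at 0 h the difference was 0.22. The library totals behind the MALAT1 extremes were 17876540 gene counts in replicate 2 of Tet plus at 6 h and 22895109 in replicate 2 of Tet minus. Over the 28 libraries of 0 to 14 h, log2 CPM went with the total gene count of the library at a Pearson correlation of -0.57 for MALAT1 (Spearman -0.64), -0.59 for NEAT1 (-0.61) and 0.41 for RMRP (0.41). These are descriptions with no p, and the part of depth in the arm differences was not tested.

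NEAT1 followed the same libraries as MALAT1. At 0, 3 and 6 h NEAT1 had 163 and 622, 391 and 203, and 387 and 591 CPM in Tet plus libraries, against 262 and 274, 296 and 363, and 396 and 82.1 CPM in Tet minus libraries. At 8, 10 and 12 h NEAT1 had 371 and 98.4, 174 and 55.9, and 237 and 233 CPM in Tet plus libraries, against 316 and 89.9, 223 and 192, and 119 and 144 CPM in Tet minus libraries. At 14 h NEAT1 had 216 and 212 CPM in Tet plus libraries, against 122 and 133 CPM in Tet minus libraries. Tet plus lay above Tet minus at 12 and 14 h and below it at 10 h, and 9 of 14 pairs were higher in Tet plus. Its replicates differed most of the 5 RNAs, up to 3.81-fold in Tet plus at 0 h and 4.82-fold in Tet minus at 6 h. MALAT1 had 8.69 to 32.7 counts per NEAT1 count in Tet plus libraries at 0 to 14 h, with a median of 12.8, against 8.08 to 20.0 with a median of 13.2 in Tet minus libraries. The mean log2 ratio was 3.75 in Tet plus and 3.71 in Tet minus, a difference of 0.039 (exact permutation test, two-sided, p = 0.772, adjusted 0.772, n = 14 each; within pairs 0.744, adjusted 0.744).

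TERC varied over a narrow range. At 0, 3 and 6 h TERC had 139.9 and 111, 94.4 and 135, and 90.7 and 81.5 CPM in Tet plus libraries, against 101 and 128, 113 and 122, and 102 and 124 CPM in Tet minus libraries. At 8, 10 and 12 h TERC had 95.5 and 149, 139 and 136, and 126 and 111 CPM in Tet plus libraries, against 93.7 and 132, 132 and 120.0, and 147 and 117 CPM in Tet minus libraries. At 14 h TERC had 122 and 116 CPM in Tet plus libraries, against 146 and 102 CPM in Tet minus libraries. Tet plus lay above Tet minus at 10 h and below it at 6 h, with 7 of 14 pairs higher and 7 lower. The sign of its difference at 0 to 14 h changed with ERCC scaling (0.11) and without any of 3 libraries, at values of at most 0.0086. Its replicates differed by at most 1.56-fold in Tet plus over 0 to 14 h and 1.5-fold in Tet minus over 0 to 22 h.

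**Figure D2:**
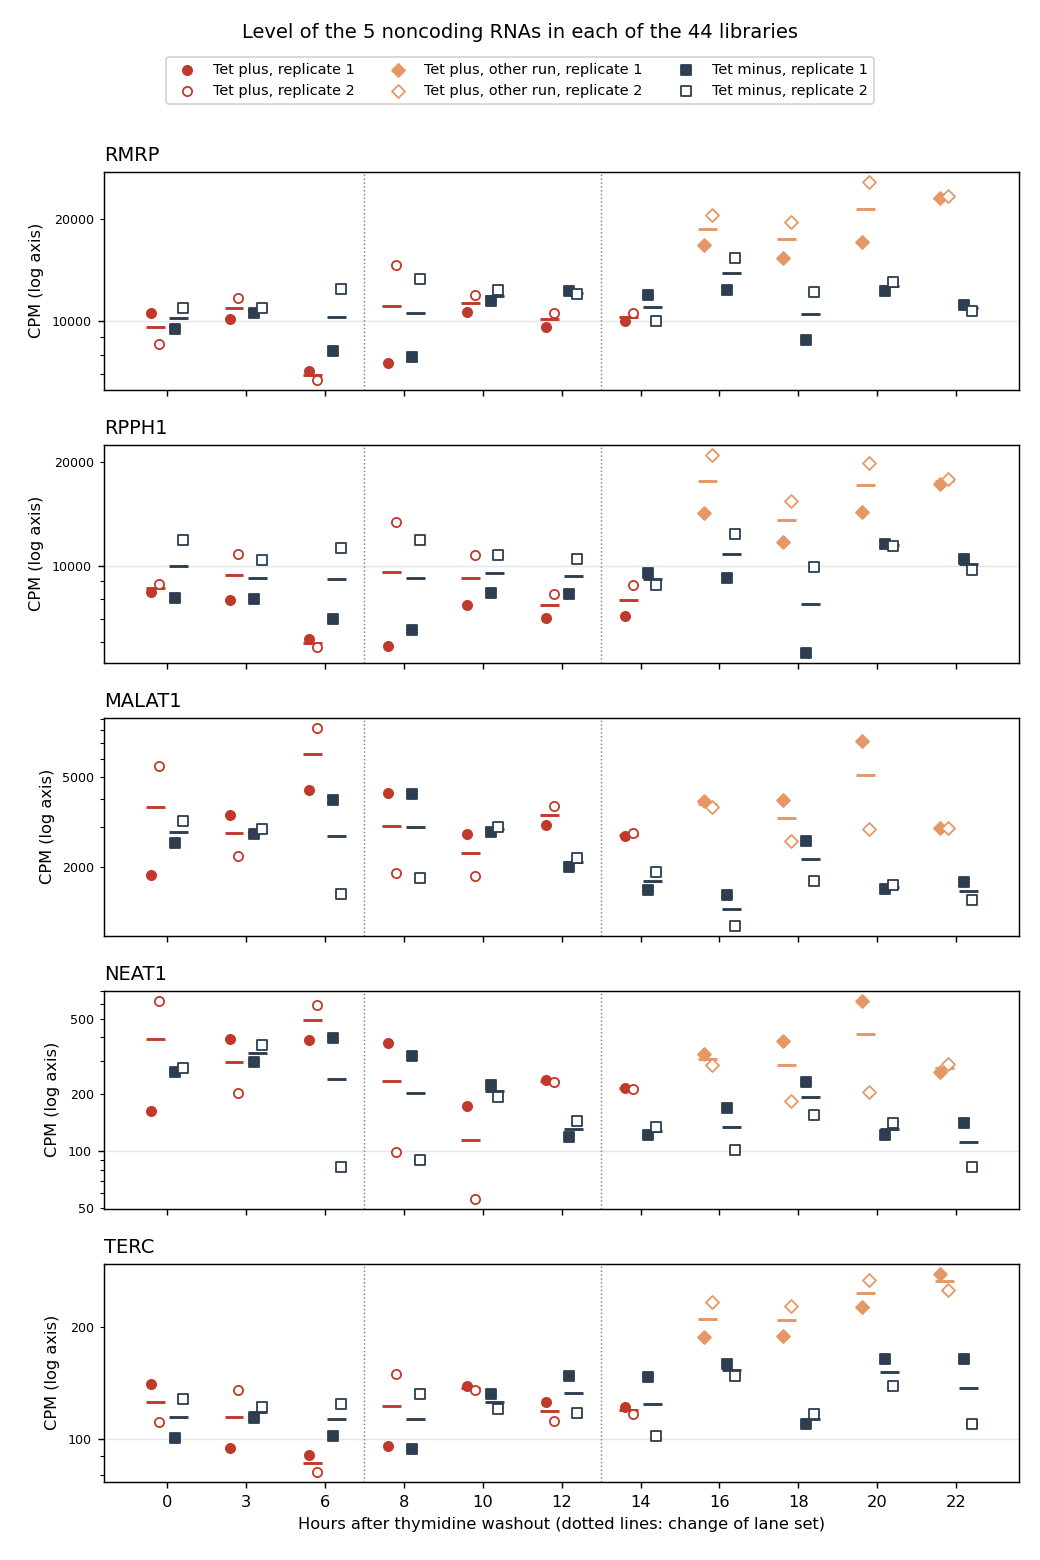
Level of each RNA in TMM-scaled CPM (log axis) in all 44 libraries against hours after thymidine washout, with filled symbols for replicate 1, open symbols for replicate 2 and bars for group means; Tet plus stands left of Tet minus at each time. At each time from 16 to 22 h, RMRP, RPPH1 and TERC of the other run stand above the Tet minus libraries of the same time. At 6 h MALAT1 had 4378 and 8225 CPM in Tet plus, against 3955 and 1524 CPM in Tet minus. This difference did not pass in edgeR's test without the replicate block (adjusted p = 0.128).

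Along the course within a lane set, no RNA passed the joint F test in any of 6 courses, where 3.08, 4.57, 0.117, 0.564, 1.91 and 0.894% of all genes were called (Tet plus and Tet minus at 0 to 6 h, both at 8 to 12 h, Tet plus at 16 to 22 h and Tet minus at 14 to 22 h). The test of whether the arm difference changed between 0 and 14 h gave an adjusted p of 1.00 for all 5, with 0.0138% of all genes called. The orders that follow run across lane sets, so time and lane set change together in them. The group means of RMRP in Tet plus at 0 to 14 h were lowest at 6 h, 6954 CPM, and highest at 10 h, 11325 CPM. In Tet minus over 0 to 22 h they were lowest at 0 h, 10226 CPM, and highest at 16 h, 13884 CPM. Of RMRP groups ordered by mean, neighbours overlapped in 5 of 6 cases in Tet plus, where 6 h lay below 0 h, and in 9 of 10 in Tet minus, where 12 h lay below 20 h. RPPH1 in Tet plus was lowest at 6 h (5965 CPM) and highest at 8 h (9604 CPM), and in Tet minus lowest at 18 h (7727 CPM) and highest at 20 h (11487 CPM). TERC in Tet plus was lowest at 6 h (86.1 CPM) and highest at 10 h (137 CPM), and in Tet minus lowest at 8 h (113 CPM) and highest at 16 h (153 CPM).

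MALAT1 and NEAT1 stood the other way round at 6 h in Tet plus. MALAT1 was highest there at 6 h (6301 CPM) and lowest at 10 h (2310 CPM), and NEAT1 likewise highest at 6 h (489 CPM) and lowest at 10 h (115 CPM). In Tet minus, MALAT1 was highest at 8 h (2995 CPM) and lowest at 16 h (1312 CPM), and NEAT1 highest at 3 h (329.8 CPM) and lowest at 22 h (112 CPM). In the order of means, all 6 neighbouring pairs of MALAT1 groups overlapped in Tet plus, and 9 of 10 in Tet minus. For NEAT1, 5 of 6 and 9 of 10 overlapped.

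At 16 to 22 h all 5 RNAs were higher in Tet plus, in a comparison where arm and run cannot be told apart and where 53.1% of all genes were called, 26.3% as higher. At 16, 18, 20 and 22 h RMRP had 16751 and 20555, 15343 and 19543, 17067 and 25746, and 22998 and 23323 CPM in Tet plus libraries, against 12363 and 15404, 8822 and 12205, 12289 and 13067, and 11194 and 10733 CPM in Tet minus libraries. No RMRP library of Tet plus overlapped those of Tet minus at any of these 4 times. The log2 difference was 0.75 (SE 0.125, adjusted p = 1.5e-05, 8 of 8 pairs higher). RPPH1 had 11709 to 21048 CPM in Tet plus libraries, with a median of 16363, against 5563 to 12393 CPM with a median of 10186 in Tet minus libraries. Its log2 difference was 0.72 (SE 0.166, adjusted p = 0.000620, 8 of 8 pairs). TERC had 187 to 277 CPM in Tet plus libraries, against 109 to 164 CPM in Tet minus libraries, a log2 difference of 0.75 (SE 0.110, adjusted p = 2.6e-06).

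At 16, 18, 20 and 22 h MALAT1 had 3928 and 3666, 3964 and 2599.6, 7185 and 2958, and 2979 and 2976 CPM in Tet plus libraries, against 1517 and 1106, 2623 and 1741, 1600.5 and 1682, and 1729 and 1432 CPM in Tet minus libraries. The arms overlapped at 18 h only, and 8 of 8 pairs were higher in Tet plus. The log2 difference was 1.17 (SE 0.237, adjusted p = 0.000176). NEAT1 had 184 to 623 CPM in Tet plus libraries, against 82.9 to 231 CPM in Tet minus libraries, and a log2 difference of 1.17 (SE 0.341, adjusted p = 0.00523, 8 of 8 pairs). All 5 calls held without each of the 16 libraries in turn. The part that the spike-in and small nucleolar shares of the other run, given above, have in these differences was not tested.

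Between 14 and 16 h time changed in both arms, and in Tet plus the run changed as well. RMRP was higher at 16 h than at 14 h in both arms, and this step was not tested. RMRP had 16751 and 20555 CPM in Tet plus at 16 h and 10048 and 10572 CPM in Tet plus at 14 h, while Tet minus had 12363 and 15404 CPM at 16 h and 11963 and 10036 CPM at 14 h. The arm difference at 16 to 22 h exceeded that at 0 to 14 h by 0.89 for RMRP (SE 0.157, adjusted p = 0.000144), 0.91 for RPPH1 (SE 0.207, adjusted p = 0.00221) and 0.78 for TERC (SE 0.138, adjusted p = 0.000143), where 20.6% of all genes were called. For MALAT1 it was 0.80 (SE 0.294, adjusted p = 0.0543) and for NEAT1 0.83 (SE 0.422, adjusted p = 0.175). The MALAT1 call depended on the setting: it passed in all 5 alternatives that kept every library, with adjusted p-values of at most 0.0482 and a value of 0.78 with the replicate block (adjusted p = 0.0251). It also passed without 10 of the 44 libraries, 1 left out at a time, at 0.84 to 0.94. In Tet plus these were replicate 1 at 3, 8 and 10 h and replicate 2 at 0, 6, 18 and 20 h, and in Tet minus replicate 1 at 18 h and replicate 2 at 6 and 8 h. NEAT1 passed with ERCC scaling alone, where the values were 5.16 for MALAT1 and 5.19 for NEAT1 and the median of all genes was 4.27. With TMM scaling, the arm difference of MYCN at 16 to 22 h exceeded that at 0 to 14 h by 0.015 (SE 0.0762, adjusted p = 0.931 by edgeR's test).

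Across libraries the RNAs fell into 2 sets that went opposite ways. Over the 36 libraries outside the other run, which share lanes and differ in depth, RMRP and RPPH1 had a Pearson correlation of log2 CPM of 0.87 (Spearman 0.86), and RMRP and TERC of 0.80 (0.77). MALAT1 and NEAT1 had 0.88 (0.88). MALAT1 and RMRP had -0.83 (-0.75), and among 10089 other genes at or above 3 in mean log2 CPM, MALAT1 was the one least like RMRP. These are descriptions of co-variation among libraries, with no p. The same 2 sets also stood opposite in their relation to library properties. With the total gene count the correlation was 0.40 for RMRP, 0.44 for RPPH1 and 0.12 for TERC, against -0.46 for MALAT1 and -0.55 for NEAT1. With the ERCC share it was 0.51 for RMRP, 0.54 for RPPH1 and 0.46 for TERC, against -0.31 for MALAT1 and -0.43 for NEAT1. The part of these properties in the co-variation was not tested. At 0 to 14 h the count ratio of MALAT1 to RMRP was 0.128 to 1.22 in Tet plus libraries, with a median of 0.296, against 0.122 to 0.533 with a median of 0.247 in Tet minus libraries. Its mean log2 value was -1.64 in Tet plus and -2.13 in Tet minus, a difference of 0.49 (exact permutation test, two-sided, p = 0.116, adjusted 0.528, n = 14 each, higher in Tet plus at 5 of 7 times; within pairs 0.0730, adjusted 0.153).

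**Figure D3:**
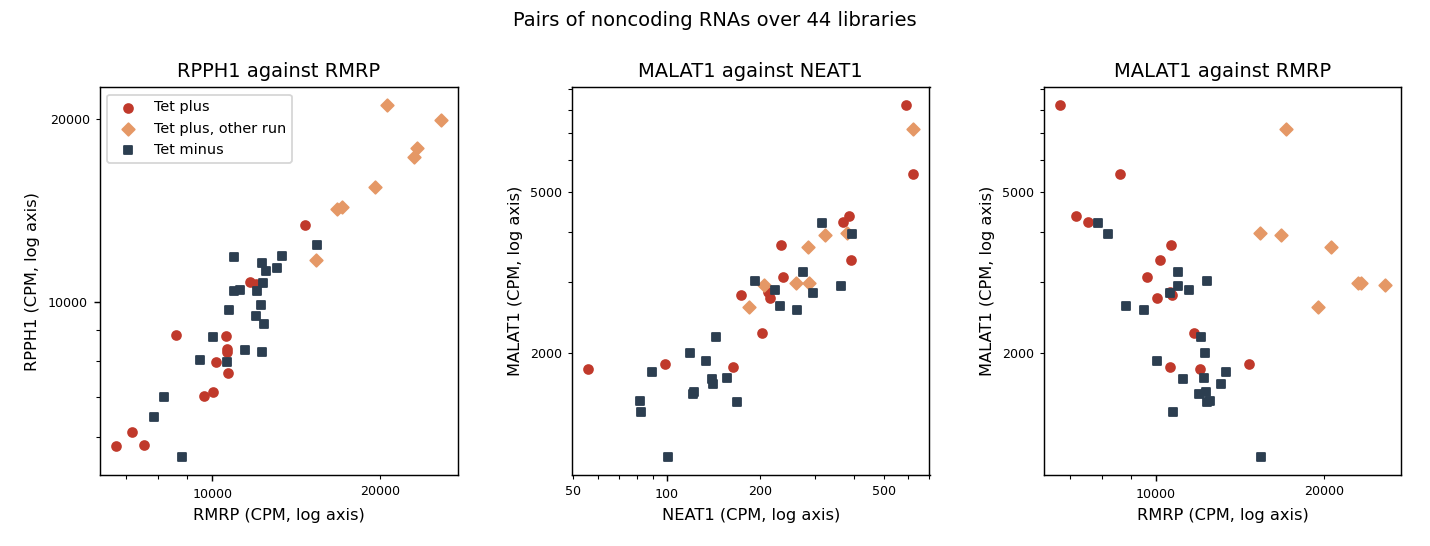
TMM-scaled CPM of one RNA against another (log axes) over 44 libraries, 1 point each, for RPPH1 against RMRP, MALAT1 against NEAT1 and MALAT1 against RMRP. RPPH1 climbs with RMRP and MALAT1 with NEAT1, while MALAT1 falls as RMRP climbs among the 36 libraries outside the other run (Pearson -0.83); the 8 libraries of the other run lie apart in the third panel.

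The genes most like each RNA over these 36 libraries were named by rank alone. RMRP was nearest to RPPH1 (0.87), AP1S1 (0.87) and GNB2L1 (0.87), and RPPH1 to SCARNA12 (0.92), RPS18 (0.89) and RMRP (0.87). MALAT1 was nearest to NEAT1 (0.88) and GOLGA8B (0.87). NEAT1 was nearest to MIR612 (0.90), MALAT1 (0.88) and GOLGA8B (0.87). TERC was nearest to SNAP47 (0.84), RPL18 (0.83) and EHMT2 (0.83). MIR612 lies inside the long NEAT1 isoform, at positions 21661 to 21760, so both rows can draw on the same reads. GENCODE also places RPPH1 inside AL355075.4 on the same strand and a second gene, AP000769.2, opposite MALAT1, and how the authors' counting split such overlaps is not given in the sources used here.

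The genes for the proteins that work with these RNAs were counted in the same fit at 0 to 14 h, where 21.3% of all genes were lower and 20.1% higher in Tet plus. Of 9 tested RNase P and RNase MRP protein genes, 8 fell and 0 rose, with a median log2 difference of -0.26 (all genes 0.0095). POP1, the largest subunit, had a mean of 145 CPM (Tet plus) and 190.1 CPM (Tet minus) (log2 -0.39, SE 0.0498, adjusted p = 5.4e-07). POP7 had a mean of 36.1 CPM (Tet plus) and 50.7 CPM (Tet minus) (-0.50, SE 0.0649), and RPP40 3.36 CPM (Tet plus) and 5.94 CPM (Tet minus) (-0.82, SE 0.124). POP4 did not pass, at -0.11 (SE 0.0632, adjusted p = 0.176). A call depends on the SE as well as on the value. RPP14 and RPP30 were called at -0.15 (SE 0.0481) and -0.17 (SE 0.0566). RMRP and RPPH1 were not called at -0.14 (SE 0.0943) and -0.18 (SE 0.125).

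Of 13 telomerase protein and assembly genes, 10 fell and 0 rose, with a median of -0.39. TERT, the reverse transcriptase that copies the TERC template, had a mean of 4.16 CPM (Tet plus) and 11.5 CPM (Tet minus) (log2 -1.52, SE 0.107, adjusted p = 1.6e-11). The H/ACA proteins DKC1 and NHP2, which bind TERC and many small nucleolar RNAs, were at -0.59 (SE 0.0446) and -0.50 (SE 0.0575). TERC itself was at -0.038, with a 95% interval of -0.21 to 0.13. Of 11 genes for RNA polymerase III initiation at gene-external promoters, 7 fell and 1, SNAPC3, rose. SNAPC1 and SNAPC5, subunits of the complex that binds such promoters, were at -0.57 (SE 0.0900) and -0.41 (SE 0.0720), and the initiation factor BRF2 at -0.20 (SE 0.0458).

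Of 13 nuclear speckle protein genes, 10 fell and 0 rose, with a median of -0.22. The splicing factors SRSF1, SRSF7 and ACIN1 were at -0.27 (SE 0.0546), -0.22 (SE 0.0520) and -0.20 (SE 0.0476). Of 13 paraspeckle protein genes, 2 fell, DAZAP1 at -0.26 (SE 0.0491) and RBM14 at -0.24 (SE 0.0959), and the median was -0.080; 21.3% of all genes were lower, so this count is not above the background. HNRNPK did not pass, at -0.085 (adjusted p = 0.109). Whether the lists differ from each other was not tested.

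**Figure D4:**
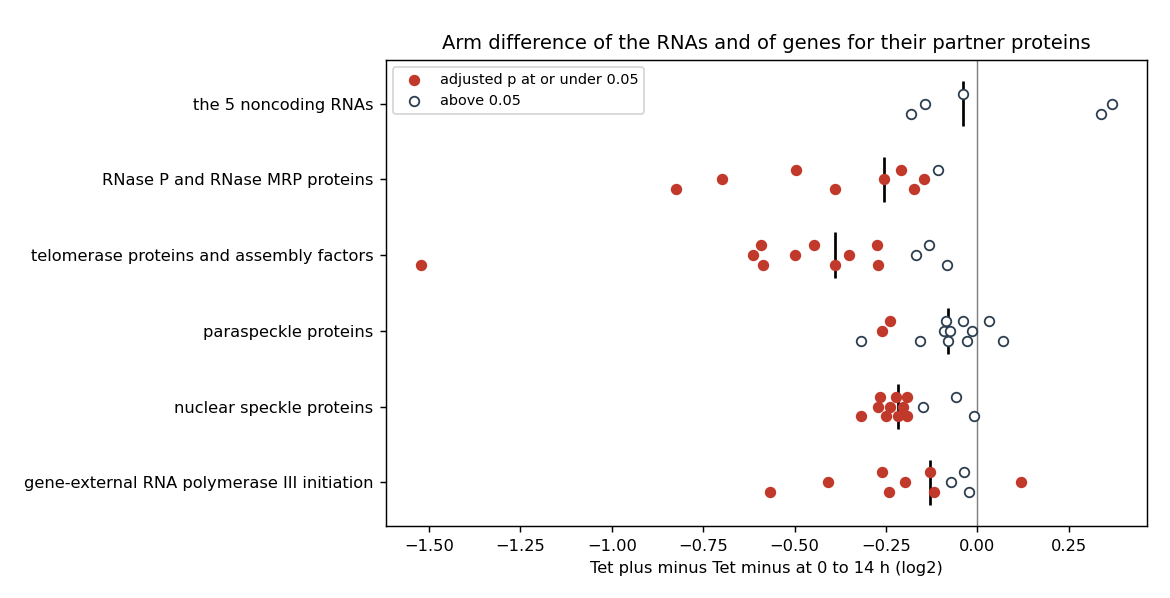
Log2 difference between the arms at 0 to 14 h (x axis, Tet plus minus Tet minus) for the 5 RNAs and for each tested gene of 5 lists, 1 point per gene, with a bar at the median of each row. Filled points had an adjusted p at or under 0.05. There are 8 of 9 for RNase P and RNase MRP proteins, 10 of 13 for telomerase and 0 of 5 for the RNAs. Whether a point is filled depends on its SE as well as on its value.

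Of 11 other long noncoding RNAs tested at 0 to 14 h, MIAT rose and PVT1 fell, no larger a share than the 20.1% higher and 21.3% lower among all genes. MIAT had a mean of 154 CPM (Tet plus) and 81.1 CPM (Tet minus) (log2 0.93, SE 0.124, adjusted p = 1.0e-06), and PVT1 16.9 CPM (Tet plus) and 20.4 CPM (Tet minus) (-0.26, SE 0.0796, adjusted p = 0.00893). TP53TG1 was at 0.25 (SE 0.129, adjusted p = 0.123). Of 3 short RNA polymerase III transcripts that passed the filter, BCYRN1 fell (-0.84, SE 0.110, adjusted p = 7.6e-07), and RNU6ATAC (0.64, adjusted p = 0.127) and VTRNA1-1 (0.20, adjusted p = 0.516) did not pass. Of 6 tested neighbours of the 5 genes, 1, FRMD8, was lower (-0.16, SE 0.0497, adjusted p = 0.0113), a share near the 21.3% of all genes. CCDC107, the neighbour of RMRP, was at 0.11 (adjusted p = 0.353).

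At 16 to 22 h, with arm and run coinciding, 26.8% of all genes were lower and 26.3% higher. Of the RNase P and RNase MRP genes 7 of 9 were lower and 0 higher, of the telomerase genes 10 of 13 and 0, and of the nuclear speckle genes 10 of 13 and 0. Of the 11 RNA polymerase III initiation genes 4 were lower, 1, SNAPC3, was higher (0.39) and 6 did not pass. Of the 13 paraspeckle genes 6 were lower, 2, TARDBP (0.35) and CPSF6 (0.15), were higher and 5 did not pass. RNU6ATAC had a mean of 99.9 CPM (Tet plus) and 15.8 CPM (Tet minus) (log2 2.63, SE 0.444, adjusted p = 1.6e-05), and VTRNA1-1 1.21 CPM (Tet plus) and 0.374 CPM (Tet minus) (1.63, SE 0.280). BCYRN1 had a mean of 31.4 CPM (Tet plus) and 57.4 CPM (Tet minus) (-0.86, SE 0.147). MIAT was at 1.09 (SE 0.165).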

How the data were processed

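Total RNA depleted of ribosomal RNA was sequenced from 44 libraries of IMR5/75 cells, 2 biological replicates for each of 2 arms at 11 times, with ERCC spike-in RNA added before processing and a directional library kit, per the labels' protocols. The deposited values are whole-number counts per gene symbol for 23367 genes and 92 ERCC rows, and 3929 genes were at 0 in every library. TopHat2 2.0.5, HTSeq and hg19 are named in the submitters' processing notes; the HTSeq version, annotation and strand setting were not given there. ERCC rows were left out of library sizes and tests.

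From the counts, edgeR 4.0.16 in R 4.3.3 gave TMM factors, the filterByExpr filter by group and the quasi-likelihood test over 22 group means of all 44 libraries, with Benjamini-Hochberg adjustment over 14534 genes and a threshold of 0.05. Replicate numbers were compared between the arms. At each time the deviations of same-numbered libraries from their group means correlated over genes (lowest 0.37 at 0 to 14 h and 0.26 at 16 to 22 h). Same-numbered libraries also shared a lane up to 14 h, so the numbers pair the libraries. The main test over 22 group means did not use these pairs. For the 5 RNAs, the replicate difference had the same sign in both arms at 3 (RMRP, NEAT1), 4 (MALAT1) or 5 (RPPH1, TERC) of 7 times. The replicate block was a single offset over all times and did not model the pairs of each time. Blocked values are printed where a call changed. Alternatives were DESeq2 1.42.0 (size factors and Wald test), library sizes without the 5 RNAs and small nucleolar RNAs, ERCC scaling, no filter, the replicate block, the 28 or 16 libraries of a window alone, and each library left out. The script was tested on simulated data. Log2 CPM for correlations used a prior count of 2. Ratios of 2 RNAs were tested by exact permutation of the arm within each time, and, as an alternative chosen after seeing the data, by exact sign flips within same-numbered pairs. Both tests treat libraries of different times as independent. The ratio of RMRP to RPPH1 was higher in replicate 1 in 16 of 18 groups outside the other run, so a replicate effect can run through the times. Counts are PCR-amplified reads, so intervals cover counting error only. Sequences and lengths came from GENCODE release 29, and no coordinates were converted.

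The 5 RNAs were given by name, and the gene lists were chosen with earlier results of these data known. In each list the genes with the smallest adjusted p at 0 to 14 h, up to 3, are named; others named were chosen after their values were seen. A few genes that this rule or the likeness ranking would name are not reported here. RN7SK, RN7SL1, RN7SL2, RNY1 and RNY3 had no row under these symbols in the count table and were not analysed. Python 3.11.15 with pandas 2.3.3 and matplotlib 3.10.9 made the summaries and plots.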

Additional observations from a re-analysis of the deposited data

Results flagged for a closer look

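The arm difference of 3 RNAs was larger at 16 to 22 h than at 0 to 14 h by the test of that difference in edgeR's fit. The same test called 20.6% of all 14534 genes, in either direction. RMRP, the RNA of RNase MRP, differed by 0.89 on the log2 scale between the windows (0.75 at 16 to 22 h, -0.14 at 0 to 14 h, adjusted p = 0.000144). RPPH1, the RNA of RNase P, differed by 0.91 (0.72 and -0.18, adjusted p = 0.00221). TERC, the telomerase RNA, differed by 0.78 (0.75 and -0.038, adjusted p = 0.000143). All 3 stayed past the threshold without each of the 44 libraries in turn. MALAT1 (0.80, adjusted p = 0.0543) missed the threshold as reported but passed in all 5 alternatives that kept every library, so the count of 3 depends on the setting. In 1 of these alternatives, ERCC scaling, the median of all genes was 4.27, so a pass there says little about MALAT1 itself. The Tet plus libraries of 16 to 22 h are treated as another run, so that window and run cannot be told apart. Groups of 2 libraries are too small for a test of outlying samples.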

How the results depend on the processing

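At 16 to 22 h the 5 RNAs kept their direction and their calls in all 115 combinations of RNA and alternative, and at 0 to 14 h in 165 of 175; none reversed a called value. With the replicate block, MALAT1 passed at 0 to 14 h (0.38) and at 6 h (1.28), where the shares of all genes called with it are not given. The block changed no other call of the 5 RNAs in either window, at a single time or in a course. The block raised the genes called for the change of the arm difference over time to 22, and for the courses to 1382 (Tet plus, 0 to 6 h), 1894 (Tet minus, 0 to 6 h), 55 (Tet plus, 8 to 12 h), 176 (Tet minus, 8 to 12 h), 1399 (Tet plus, 16 to 22 h) and 609 (Tet minus, 14 to 22 h). ERCC scaling moved the median of all genes to 0.13 at 0 to 14 h and 4.40 at 16 to 22 h, where the 5 RNAs had 5.09 to 5.64; TERC at 0 to 14 h was 0.11. It called 48 genes at 0 to 14 h, 14510 at 16 to 22 h, 0 for the change over time, and 3, 2, 0, 0, 0 and 3 in the courses in the order above. With no filter the change over time called 6 genes and the Tet plus course of 0 to 6 h 288. The cause of these shifts was not tested.

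Leaving out 1 library each gave ranges of -0.22 to -0.077 for RMRP, -0.28 to -0.10 for RPPH1, 0.22 to 0.49 for MALAT1, 0.16 to 0.56 for NEAT1 and -0.090 to 0.0086 for TERC at 0 to 14 h. It gave 5605 to 6001 genes called at 0 to 14 h, 7155 to 7519 at 16 to 22 h and 0 to 5 for the change over time. The courses ranged over 163 to 544, 364 to 548, 0 to 15, 35 to 72, 62 to 365 and 68 to 172, in the same order; where an arm then had 1 library at a time, it was assumed to vary like the other groups. Counting intervals cover counting error only, and with 2 libraries a group a single library can move a value.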

Other observations

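The row of MIR612, a microRNA gene inside the long NEAT1 isoform, held 8.21 to 19.6 counts per 100 NEAT1 counts in Tet plus libraries at 0 to 14 h, against 8.80 to 18.4 in Tet minus libraries. The mean log2 ratio differed by -0.076 between the arms (-2.87 in Tet plus, -2.80 in Tet minus; exact permutation test, two-sided, p = 0.453, adjusted over 5 measures 0.623, n = 14 each; within same-numbered pairs 0.484, adjusted 0.605). Small nucleolar RNAs took a mean log2 percent of -1.06 in Tet plus and -1.27 in Tet minus at 0 to 14 h (difference 0.20, exact permutation p = 0.211, adjusted 0.528; exact test within same-numbered pairs 0.0441, adjusted 0.153, higher in Tet plus in 10 of 14 pairs).

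The count ratio of RMRP to RPPH1 was higher in replicate 1 than in replicate 2 in 16 of 18 groups outside the other run and in 3 of 4 groups of it. It was 1.06 to 1.59 in replicate 1 and 0.921 to 1.28 in replicate 2 of the 36 libraries, and each replicate number had its own lane in a lane set.

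Likeness to MALAT1 over the 36 libraries went with transcript length across 9942 genes with a GENCODE length (98.5% of those compared). The 100 genes most like MALAT1 had a median longest transcript of 6729 bases and the 100 least like it 1932 bases, against 3902 bases for all. For RMRP these medians were 2058 and 6705 bases, in the opposite order. Genes are not independent replicates, and this is a description of the same libraries.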
